A study of Mus musculus with 16 samples.

Results

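The comparison described here is between mouse forebrain neurons carrying shRNA_2bp, a small hairpin RNA with 2 point mutations, and neurons carrying the Empty_Vector control. It was made by the group label of each sample and took 8 of the 16 samples of the study, 4 in each group. The cells were primary cultures of perinatal neurons, and all groups received lentivirus, the controls included. The other 8 samples carried the unmutated hairpin (shRNA) or the same hairpin with 5 point mutations (shRNA_5bp), and they enter below only where the 2-mutation hairpin is set against them. The target and the sequence of the hairpin, the promoter that drives it, and the strain and number of animals are not given in the sources used here. The labels do not say whether the replicates came from separate cultures, so the p-values measure only the spread between these samples, which may be technical.

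MicroRNAs (miRNAs) are short RNAs cut from hairpin precursors, first by the Microprocessor in the nucleus and then by Dicer in the cytoplasm. One strand, from the 5p or the 3p side of the hairpin, is loaded into an Argonaute protein, and its seed, bases 2 to 8, pairs with target messages. An shRNA is exported and cut by the same machinery after the Microprocessor step, and neurons use miRNAs of their own to hold their identity and to adjust synapses.

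The mature sequences below, from RefSeq with GRCm38.p6 as its build, are those of the 8 largest falls and 8 largest rises that have an entry there, among miRNAs with a mean of at least 10 CPM (counts per 1000000 counts of the sample) over the 8 samples. They are shown because the results differ with base content and with the hairpin side. They read 5′ to 3′ and the capitals mark the seed. These 8 fell with shRNA_2bp:
miR-760-3p: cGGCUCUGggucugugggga
miR-770-5p: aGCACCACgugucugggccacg
miR-1224-5p: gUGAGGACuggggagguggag
miR-666-5p: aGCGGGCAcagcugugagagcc
miR-877-5p: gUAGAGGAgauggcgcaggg
miR-667-5p: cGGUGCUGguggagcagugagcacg
miR-758-3p: uUUGUGACcugguccacua
miR-433-3p: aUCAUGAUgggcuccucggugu

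These 8 rose with shRNA_2bp:
miR-34c-3p: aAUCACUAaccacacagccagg
miR-2137: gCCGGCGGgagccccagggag
miR-3473a: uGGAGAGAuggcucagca
miR-3473b: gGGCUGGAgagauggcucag
miR-3473e: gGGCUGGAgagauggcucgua
miR-376b-3p: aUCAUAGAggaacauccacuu
miR-10a-5p: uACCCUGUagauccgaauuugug
miR-6240: cCAAAGCAucgcgaaggcccacggcg

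Of the fallers shown, 6 have a GC content of 65 to 70%, and the exceptions are miR-433-3p at 54.55% and miR-758-3p at 47.37%. Among the risers the GC content runs from 38.1% in miR-376b-3p to 85.71% in miR-2137. The miR-3473 names are close relatives. MiR-3473b and miR-3473e share their seed and a run of 18 bases from base 1, and miR-3473a shares 16 bases with miR-3473b, so their counts may hold some of the same reads and they should not be read as 3 separate rises.

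Depth went with the group. The empty-vector samples held 2760894 to 11139163 counts and the shRNA_2bp samples 1177068 to 2097782, without overlap (exact permutation test, two-sided, p = 0.0286, the smallest that 4 against 4 allows; adjusted p = 0.0858 over 3 such values). A count of 3 in a sample corresponded to 0.269 to 1.09 CPM with the empty vector and 1.43 to 2.55 CPM with shRNA_2bp. With every sample thinned to 831859 counts, 657.25 ± 7.37 miRNAs were seen with the empty vector and 652.25 ± 9.11 with shRNA_2bp (SD, n = 4; exact p = 0.429). The 10 most abundant miRNAs of a group held 73.4 ± 0.178% and 74.0 ± 0.601% of counts (exact p = 0.143, adjusted p = 0.214). How the difference in depth bears on each result was not tested beyond the thinned fit.

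Of the 1978 named miRNAs 483 had enough counts to be tested, and 317 of them (65.6%) differed between the groups at an adjusted p under 0.05 by edgeR's quasi-likelihood test with Benjamini-Hochberg adjustment. A miRNA is said below to have risen or fallen only where it passed that test. Rises numbered 161 (33.3%) and falls 156 (32.3%), and 64 rises (13.3%) and 76 falls (15.7%) were over 2-fold. All 4 shRNA_2bp samples lay above all 4 empty-vector samples for 144 miRNAs (29.8%) and below them for 142 (29.4%). The median log2 fold change of all tested miRNAs was 0.01, with quartiles of -0.65 and 0.61. Rises were 50.8% of the changed miRNAs, but 61.9% when samples were scaled by library size alone (median 0.20) and 38.2% when no low-count filter was used (median -0.18).

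**Figure D1:**
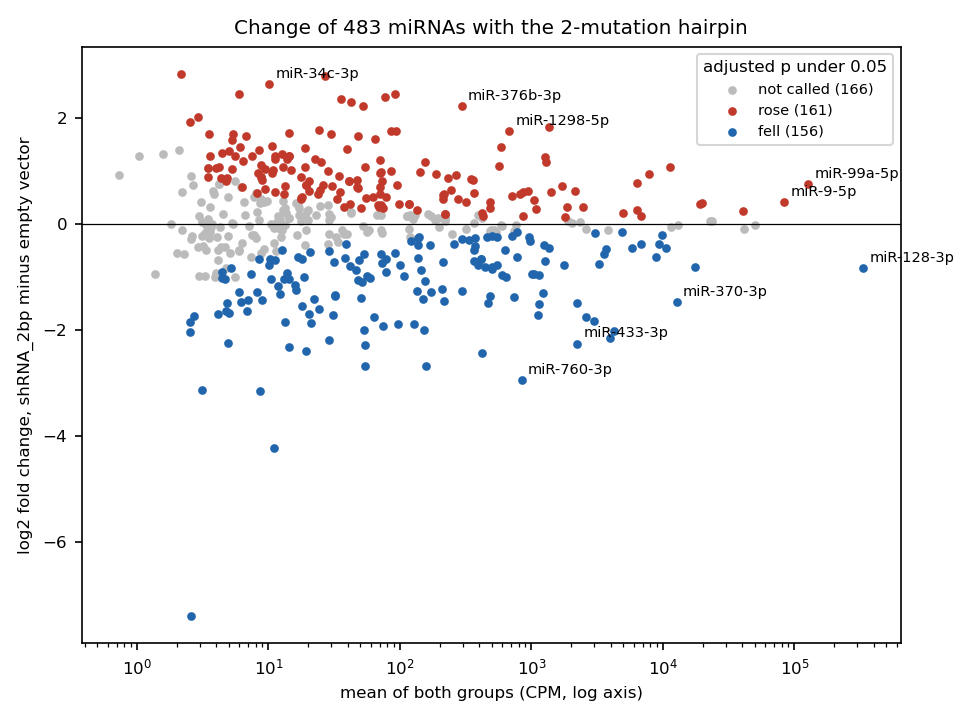
Log2 fold change of each of the 483 tested miRNAs (shRNA_2bp minus empty vector) against its mean CPM over both groups on a log axis. Points are coloured by call; the 161 rises and 156 falls span the whole range of abundance, and miR-128-3p, the most abundant miRNA, is among the falls.

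The most abundant miRNA changed most in its share of the counts. MiR-128-3p, a neuronal miRNA made from introns of R3hdm1 on chromosome 1 and Arpp21 on chromosome 9, held 38.05, 39.72, 38.24 and 38.86% of the counts in the empty-vector samples. It held 25.13, 23.88, 25.26 and 24.65% with shRNA_2bp. The groups did not overlap, and the mean was 13.98 percentage points lower, within a total redistribution of 20.1 points over all miRNAs. In scaled CPM it fell from 427182 ± 14822 to 240802 ± 11201, a log2 change of -0.83 ± 0.07 (SE, adjusted p = 4.83e-12).

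MiR-99a-5p, hosted in an intron of Mir99ahg on chromosome 16, took the largest gain. It held 8.327, 8.094, 8.462 and 9.387% of the counts with the empty vector and 16.11, 16.06, 16.06 and 17.09% with shRNA_2bp. Every shRNA_2bp sample lay far above every control, and its log2 change was 0.75 ± 0.05 (adjusted p = 5.84e-14). MiR-9-5p, which acts in neurogenesis, went from 6.45 ± 0.0825% to 9.80 ± 0.113%, and rose by 0.42 ± 0.05 on the log2 scale (adjusted p = 5.31e-09). Among the other abundant names miR-370-3p went from 1.70 to 0.691% of counts and miR-127-3p from 2.04 to 1.32%, both of them falls. Let-7c-5p, let-7i-5p, let-7a-5p and miR-26a-5p did not pass the test, with log2 changes of -0.01, -0.10, 0.06 and 0.06. These are not settled, since with library size alone let-7c-5p, let-7a-5p and miR-26a-5p were called risen (0.17, 0.24 and 0.24). Let-7i-5p was called fallen under 7 alternatives, among them the GC correction (-0.18), the replicate block (-0.10) and leaving out empty-vector sample 4 (-0.18) or shRNA_2bp sample 3 (-0.17), and miR-26a-5p was called risen without empty-vector sample 1 (0.11). The call of let-7f-5p (0.24 ± 0.06, adjusted p = 0.000499) was lost with a correction for GC content, at -0.01.

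Summed over the names with a seed that have a sequence entry, in unscaled CPM, the miR-99/100 seed ACCCGUA went from 94505 ± 5580 to 173518 ± 5269 and the let-7 seed GAGGUAG from 176986 ± 9504 to 208295 ± 5763. In the scaled fit 3 of the 10 tested names with the let-7 seed rose and 3 fell, with a median of -0.01. The unscaled sum thus does not show a rise of that family. The miR-181 seed ACAUUCA went from 14112 ± 1148 to 25197 ± 2088. In the other direction the seed of miR-221 and miR-222, GCUACAU, went from 1593 ± 81.7 to 834 ± 52.3, and CUCUGGG, shared by miR-326-3p and miR-330-5p, from 1594 ± 71.2 to 655 ± 54.3. The groups did not overlap for any of these 5 sums, which are descriptions and were not tested.

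The 12 largest falls among miRNAs whose groups did not overlap and whose unscaled mean over the 8 samples was at least 10 CPM ranged from -2.0 to -2.95 on the log2 scale. These limits leave out some larger fitted falls. Among them are miR-1188-5p (unscaled mean 9.99 CPM), described below, miR-6945-3p (-7.41), miR-3085-3p (-3.16) and miR-7080-5p (-3.13). MiR-760-3p stood first among the 12. It was measured at 1445, 1587, 1564 and 1393 CPM with the empty vector and at 183, 218, 194 and 178 CPM with shRNA_2bp. Every shRNA_2bp sample was thus far under the lowest control (-2.95 ± 0.08, adjusted p = 1.08e-22). It lies at chr3:122293615-122293634 on the minus strand (GRCm38.p6), in an exon of the non-coding Gm17494.

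Mirtrons followed. These miRNAs come from short introns cut out by splicing, without the Microprocessor. MiR-1224-5p, in an intron of Vwa5b2 at chr16:20604452-20604472 on the plus strand, had 85.4, 94.8, 113 and 83.3 CPM in controls and 11.4, 19, 7.81 and 19.6 CPM with shRNA_2bp. It fell by 2.67 on the log2 scale (SE 0.17, adjusted p = 5.84e-14). MiR-877-5p, in an intron of Abcf1 at chr17:35960795-35960814 on the minus strand, had 39.0, 30.3, 31.1 and 29.9 CPM against 5.99, 4.98, 8.52 and 5.73 CPM. In both, the highest shRNA_2bp sample was well under the lowest control. Of the 14 listed mirtrons and other miRNAs made without the Microprocessor, 10 were tested and 10 fell (7 to 11 over the alternatives), with a median of -0.74 beside 0.01 over all tested, of which 32.3% fell. MiR-1981-5p went from 687 ± 21 to 245 ± 6.39 CPM (-1.49 ± 0.07). MiR-1839-5p went from 494 ± 24.3 to 290 ± 25.6 CPM (-0.76 ± 0.07). The falls of miR-320-3p (-0.25) and miR-344d-3p (-0.24) did not hold with library size alone (-0.07 and -0.06) or without empty-vector sample 1 (-0.17 and -0.22). That of miR-344d-3p was also lost without empty-vector sample 2 or 3 (-0.18 and -0.23) or shRNA_2bp sample 1 (-0.19).

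**Figure D2:**
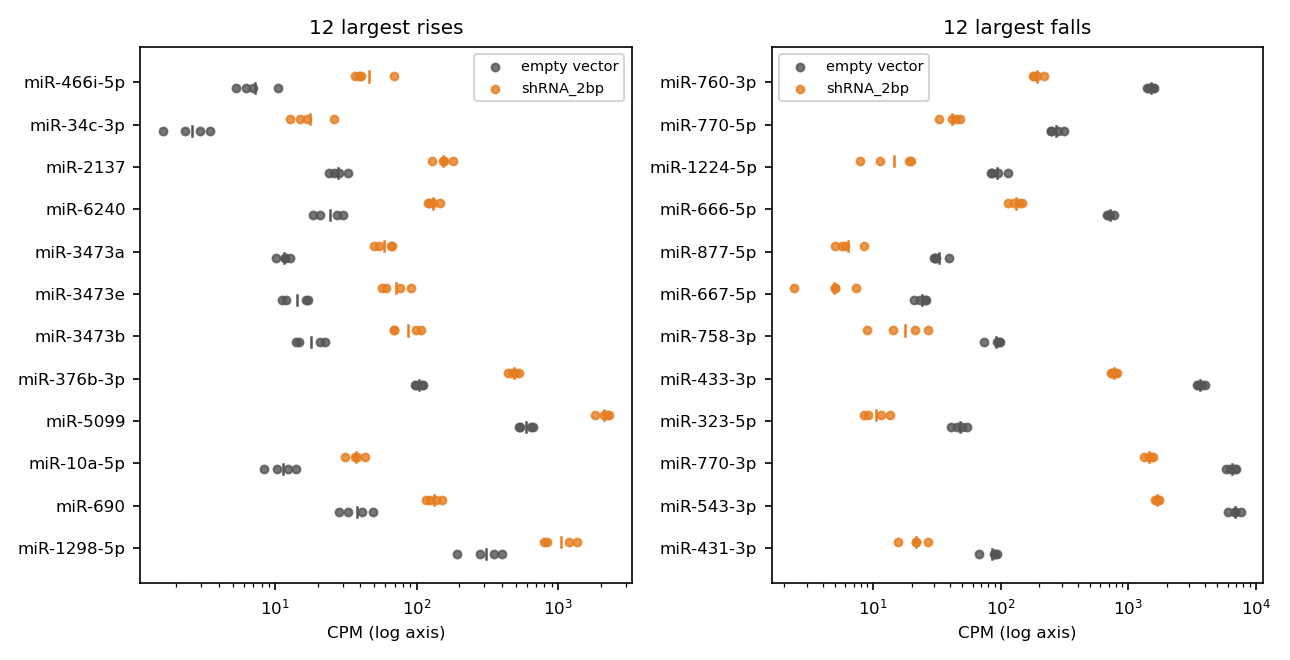
CPM on a log axis of the 12 largest rises (left) and 12 largest falls (right), 1 point per sample, with vertical ticks at group means. In each row the 4 shRNA_2bp points and the 4 empty-vector points do not overlap.

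Of those 12 falls 9 belong to the imprinted Dlk1-Dio3 region of chromosome 12, whose miRNAs are read from the maternal chromosome and are abundant in brain. From that region 79 of 111 annotated mature miRNAs were tested. Of the 79, 48 fell (60.8%, against 32.3% of all tested) and 7 rose (8.86%, against 33.3%), with a median of -0.82. The rises include miR-299a-3p and miR-299b-3p, which had identical counts and should not be read as separate rises. In the cluster at chr12:109563692-109595388, beside the non-coding Meg3, 13 of 20 fell and 0 rose, though 1 rose with library size alone and 2 with a GC correction. Within it miR-770-5p, in an exon of Meg3, had 281, 245, 314 and 246 CPM in controls and 41.3, 44.8, 48.3 and 32.7 CPM with shRNA_2bp (-2.68 ± 0.11, adjusted p = 1.6e-18). MiR-433-3p went from 3679 ± 248 to 770 ± 37.3 CPM (-2.26 ± 0.06, adjusted p = 3.07e-22), and miR-127-3p, which lies opposite the retrotransposon-derived gene Rtl1, from 22495 ± 2067 to 12849 ± 925 CPM (-0.81 ± 0.06).

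In the cluster at chr12:109611500-109618336, in introns of the non-coding Rian, 4 of 5 fell. The largest fall was that of miR-1188-5p, at 20.7 ± 1.81 CPM with the empty vector and 1.17 ± 0.868 CPM with shRNA_2bp, which is under the level of 3 counts in these samples, so the size of its fall (-4.23) is poorly fixed. MiR-370-3p fell from 18766 ± 1036 to 6731 ± 394 CPM (-1.48 ± 0.05).

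In the long cluster at chr12:109709060-109743795, partly within Mirg, 31 of 52 fell and 6 rose (3 rose at equal depth). MiR-666-5p had 691, 768, 720 and 686 CPM in controls and 128, 139, 146 and 114 CPM with shRNA_2bp (-2.44 ± 0.08, adjusted p = 8.71e-21). MiR-543-3p had 6859, 7626, 6063 and 6883 CPM against 1712, 1674, 1739 and 1621 CPM (-2.02 ± 0.07, adjusted p = 8.71e-21). Both were lower in every shRNA_2bp sample by a wide margin. Some neighbours went the other way. MiR-376b-3p, at chr12:109723508-109723528 on the plus strand, had 99.6, 97.2, 110.1 and 108.6 CPM in controls and 474, 504, 444 and 526 CPM with shRNA_2bp (2.23 ± 0.09, adjusted p = 2.29e-19). MiR-381-3p rose from 5366 ± 257 to 10392 ± 283 CPM (0.95 ± 0.05, adjusted p = 1.62e-15). MiR-667-5p, at chr12:109720020-109720044, lies close to miR-376b-3p and fell by 2.33 on the log2 scale.

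**Figure D3:**
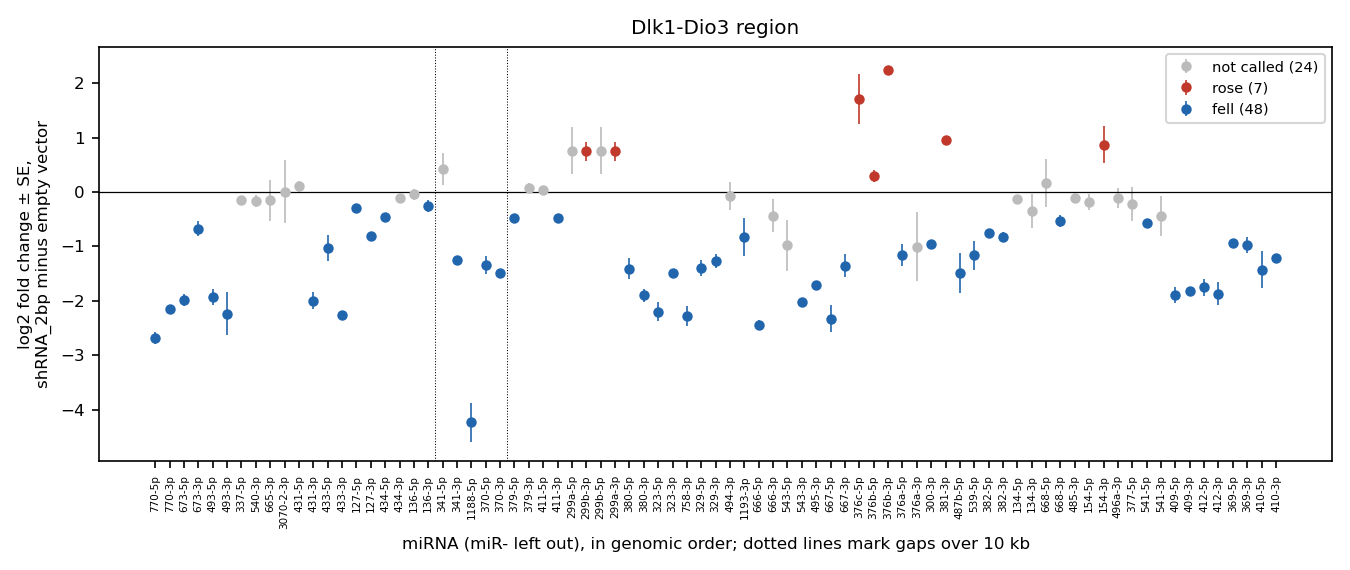
Log2 fold change with its standard error of the 79 tested miRNAs of the Dlk1-Dio3 region in genomic order. Falls (48) run through every group of neighbours, and the 7 rises lie to the right of the last gap, with miR-376b-3p highest.

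Several smaller families fell together, beside 32.3% fallen among all tested miRNAs. All 3 members of the cluster of miR-183, miR-96 and miR-182, known from sensory organs, fell. MiR-183-5p stood at 216 ± 8.66 against 81.2 ± 5.79 CPM (-1.41 ± 0.10), miR-182-5p at 91.7 ± 6.0 against 54.5 ± 10.1 CPM and miR-96-5p at 9.30 ± 3.28 against 3.11 ± 1.30 CPM. Both miR-221 and miR-222, which share a seed, fell, miR-222-3p by 1.38 on the log2 scale (SE 0.07) and miR-221-3p by 0.78 (SE 0.07). Both miR-103 and miR-107, whose host genes make pantothenate kinases, fell by nearly the same amount. MiR-103-3p went from 860 ± 58.9 to 428 ± 19.4 CPM and miR-107-3p from 142 ± 12.9 to 71.6 ± 6.74 CPM.

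Of the 27 neuron-enriched miRNAs 16 fell (59.3%, against 32.3% of all tested) and 7 rose (25.9%, against 33.3%), with a median of -0.25. MiR-330-3p fell most among those of at least 10 CPM, from 318.9 to 117.1 CPM on average (-1.44 ± 0.09, adjusted p = 1.63e-14). MiR-129-5p, at 10642 ± 494 against 8181 ± 685 CPM, was not called with a GC correction (-0.05). The rises were led by miR-129-2-3p (0.94 ± 0.11) and miR-9-3p (0.78 ± 0.06), and miR-124-3p, the classical neuronal miRNA, rose by 0.33 on the log2 scale (SE 0.07, adjusted p = 0.00021). Of 9 activity-regulated miRNAs, which follow neuronal firing, 6 fell (66.7%, against 32.3%) and 1 rose (11.1%, against 33.3%). With a GC correction 2 rose. The miR-132/212 cluster at chr11:75173388-75173747 held members of both kinds. The level of miR-212-5p dropped from 694 ± 57.4 to 269 ± 22.0 CPM (-1.36 ± 0.08, adjusted p = 5.24e-15), and miR-212-3p fell by 0.72 (SE 0.15). MiR-132-3p rose from 886 ± 76.8 to 1211 ± 87.8 CPM (0.45 ± 0.07, adjusted p = 1.25e-06).

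Among the 12 largest rises, from 1.76 to 2.80, 7 are names without an arm suffix, for which a single mature product is annotated. MiR-466i-5p rose most of the 12, from 6.99, 6.24, 10.4 and 5.32 CPM to 40.1, 68.8, 39.0 and 36.8 CPM (2.80 ± 0.28, adjusted p = 9.55e-09). MiR-2137, in an intron of Zfp185, had 28.2, 26.0, 23.9 and 32.6 CPM in controls and 155.1, 153.4, 127.8 and 181.7 CPM with shRNA_2bp (2.45 ± 0.20, adjusted p = 3.74e-09). MiR-5099 was the most abundant of them, at 593 ± 69.8 against 2110 ± 210 CPM (1.83 ± 0.16, adjusted p = 1.12e-07). Of 47 tested names without a suffix 30 rose (63.8%, against 33.3% of all tested) and 4 fell (8.51%, against 32.3%). Together the names without a suffix held 0.242 to 0.266% of counts with the empty vector and 0.521 to 0.572% with shRNA_2bp.

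MiR-1298-5p, in an intron of the serotonin receptor gene Htr2c on the X chromosome, rose from 194, 281, 354 and 399 CPM to 837, 795, 1354 and 1195 CPM. Its spread was wide in both groups, but they did not overlap (1.76 ± 0.34, adjusted p = 0.000525). MiR-10a-5p, from the Hox gene region of chromosome 11, rose from 12.4, 8.32, 14 and 10.3 CPM to 31.1, 38.0, 43.3 and 36.8 CPM (1.78 ± 0.18, adjusted p = 8.9e-10).

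All 5 tested arms of the p53-linked miR-34 family rose (median 1.67). The counts of rises in this paragraph stand beside 33.3% risen among all tested miRNAs. MiR-34c-3p was scarce in controls, at 2.93, 2.29, 1.60 and 3.48 CPM, and had 16.8, 14.9, 12.8 and 26.2 CPM with shRNA_2bp (2.65 ± 0.30, adjusted p = 5.71e-09). MiR-34b-3p rose from 13.7 ± 2.02 to 45.9 ± 3.73 CPM and miR-34c-5p from 21 ± 2.95 to 57.7 ± 15.1 CPM, while miR-34a-5p, from another locus, rose from 8.08 ± 1.82 to 17.5 ± 1.25 CPM. In the miR-30 family miR-30a-5p rose by 0.72 ± 0.06, miR-30b-5p by 0.74, miR-30c-5p by 0.63 ± 0.06 and miR-30e-5p by 0.58 ± 0.08 on the log2 scale. MiR-30d-5p, its most abundant member, did not pass the test, at 11644 CPM with the empty vector and 11250 CPM with shRNA_2bp on average (-0.05 ± 0.05, adjusted p = 0.395). From the miR-30e/30c-1 precursors within Nfyc 3 of 4 rose, and miR-30e-3p went from 796 ± 38.8 to 1807 ± 43.4 CPM (1.18 ± 0.06). Of 4 miR-181 members 3 rose (2 to 4 over the alternatives), with miR-181a-5p going from 7295 ± 638 to 15385 ± 1187 CPM (1.08 ± 0.07, adjusted p = 1.66e-14), and 4 of 5 with the miR-25/92 seed AUUGCAC rose, including miR-25-3p (1.09 ± 0.08).

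Summed marker levels of several other cell types were higher with shRNA_2bp, given here in CPM scaled like the other levels. The counts of risen markers stand beside 33.3% risen among all tested miRNAs. The 6 astroglial markers summed to 2196 to 2513 CPM with the empty vector and 3989 to 4381 CPM with shRNA_2bp. MiR-21a-3p was at 0 in 5 of the 8 samples, and 4 of the 5 tested rose, with miR-21a-5p at 1.28 ± 0.07 and miR-22-5p at 1.17 ± 0.08. The 13 vessel and fibroblast markers summed to 737 to 834 and 1229 to 1491 CPM, and 6 of 8 tested rose (3 at equal depth), among them the endothelial miR-126a-3p (0.63 ± 0.06). Most of each sum was miR-126a-3p, without which the sums were 59.4 to 79.0 and 148 to 285 CPM. Among the risers, miR-199a-3p and miR-199b-3p had identical counts and should not be read as separate rises. MiR-145a-5p had at most 1 count in a sample. The 8 choroid plexus and ciliated-cell markers overlapped, at 538 to 908 and 827 to 1250 CPM, but without miR-204-5p they did not, at 54.1 to 67.8 and 136 to 195 CPM. Of these markers 6 of 6 tested rose, of which 4 are arms of miR-34b and miR-34c. The others are the arms of miR-204, whose calls did not hold under every alternative. That of miR-204-5p (0.52) was lost, among others, in the fit of the 8 samples alone (0.53, adjusted p = 0.110). That of miR-204-3p (0.63) was lost, among others, at equal depth (0.47, adjusted p = 0.182).

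The neuron-enriched list summed to 529294 to 564441 CPM with the empty vector and 357690 to 388360 CPM with shRNA_2bp. That fall lay in miR-128-3p. Without it the other 26 members summed to 110945 to 115111 CPM with the empty vector and 131018 to 136174 CPM with shRNA_2bp, so their sum was higher, with miR-9-5p the largest of them. Microglial and leukocyte markers summed to 51.2 to 61.4 and 88.7 to 104.5 CPM, nearly all of it miR-146a-5p, while miR-142a-3p and miR-223-3p, which define those cells, were at 0 in all 8 samples. Oligodendrocyte markers summed to 119.4 to 149.6 and 151.6 to 175.5 CPM, with miR-219b-3p and miR-219c-3p at 0. Nearly all of it was miR-338-5p, without which the sums were 4.74 to 8.78 and 9.93 to 13.9 CPM. MiR-219a-5p had at most 1 count in a sample. The rise of miR-338-5p (0.27) was lost under several alternatives, among them leaving out empty-vector sample 4 (0.18). Erythroid names summed to 394 to 438 and 458 to 514 CPM, with both arms of miR-144 at 0. MiR-451a had at most 3 counts in a sample. Nearly all of the erythroid sum was miR-486a-5p and miR-486b-5p, which may hold the same reads, since each sample gave them equal counts. With miR-486a-5p left out the sums were 203 to 225 and 241 to 267 CPM. The rise of miR-486a-5p (0.19) was lost under several alternatives, among them leaving out empty-vector sample 4 (0.09). The 4 muscle markers overlapped. In such bulk samples more cells of a type and more RNA per cell cannot be told apart, and the part of these markers in the other results was not tested.

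The balance of the arms was tested within each hairpin, where depth and scaling cancel. Of 119 hairpins with both arms tested 49 (41.2%) shifted, 18 toward the 5p arm (15.1%) and 31 toward the 3p arm (26.1%). The counts were 27, 9 and 18 with limma and a replicate block. Of the 49, 31 shifted toward the arm that was the minor one in controls, against 70 of the 119 in all that moved that way with or without passing the test.

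Among hairpins whose arms both had an unscaled mean of at least 10 CPM, miR-431 and miR-376b shifted most. In miR-376b the 5p arm gave 38.4, 38.5, 40.3 and 39.7% of its counts in controls and 15.3, 14.2, 15.9 and 12.6% with shRNA_2bp, without overlap (-1.93 ± 0.13 on the log2 scale of 5p over 3p, adjusted p = 2.15e-12). MiR-431 moved the other way, from 55.3, 58.1, 63.8 and 58.1% to 83.1, 86.5, 90.8 and 81.5% from the 5p arm (2.10 ± 0.20, adjusted p = 2.53e-09). There the 3p arm fell (-2.0 ± 0.15) and the 5p arm did not pass the test (0.10 ± 0.10). Both lie in the Dlk1-Dio3 region.

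Toward the 3p arm, miR-673 went from 80.3 ± 1.09 to 62.0 ± 3.54% 5p, miR-34c from 89.1 ± 2.86 to 76.5 ± 4.65% and miR-708 from 7.83 ± 0.720 to 3.61 ± 0.679%. Toward the 5p arm, miR-335 went from 8.52 ± 1.21 to 16.2 ± 0.925%, miR-873a from 53 ± 4.77 to 69.5 ± 5.83% and miR-1298 from 97.1 ± 0.587 to 98.7 ± 0.388%. The shift of miR-873a was lost with limma and a replicate block (adjusted p = 0.0594). The shifts of miR-667 (34.9 ± 7.03 to 22.3 ± 10.4%, adjusted p = 0.0284) and miR-30b (71.4 ± 5.01 to 79.3 ± 4.88%, adjusted p = 0.0208) overlapped between groups. They were lost with limma (adjusted p = 0.118 and 0.103) and on leaving out some samples. For miR-667 these were empty-vector sample 2 or 4 (adjusted p = 0.0549 and 0.0762) or shRNA_2bp sample 1, 2 or 3 (0.092, 0.120 and 0.0943). For miR-30b they were empty-vector sample 2 (0.112) or shRNA_2bp sample 1 or 4 (0.0641 and 0.0811). Where both arms were called, in 60 hairpins, both rose in 24, both fell in 32 and they went opposite ways in 4, namely let-7d, miR-132, miR-298 and miR-708. Of these, the level of miR-708-5p went from 187 ± 13.5 to 102 ± 15.1 CPM and that of miR-708-3p from 2201 ± 86.7 to 2746 ± 140.5 CPM. In let-7d, miR-132 and miR-298 the opposite direction rests on 1 arm whose call did not hold under every alternative. The call of let-7d-3p (0.15) was lost, among others, without empty-vector sample 4 (0.07). That of miR-132-5p (-0.15) was lost with DESeq2 (-0.14), and that of miR-298-3p (1.07) without shRNA_2bp sample 1 (0.94).

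**Figure D4:**
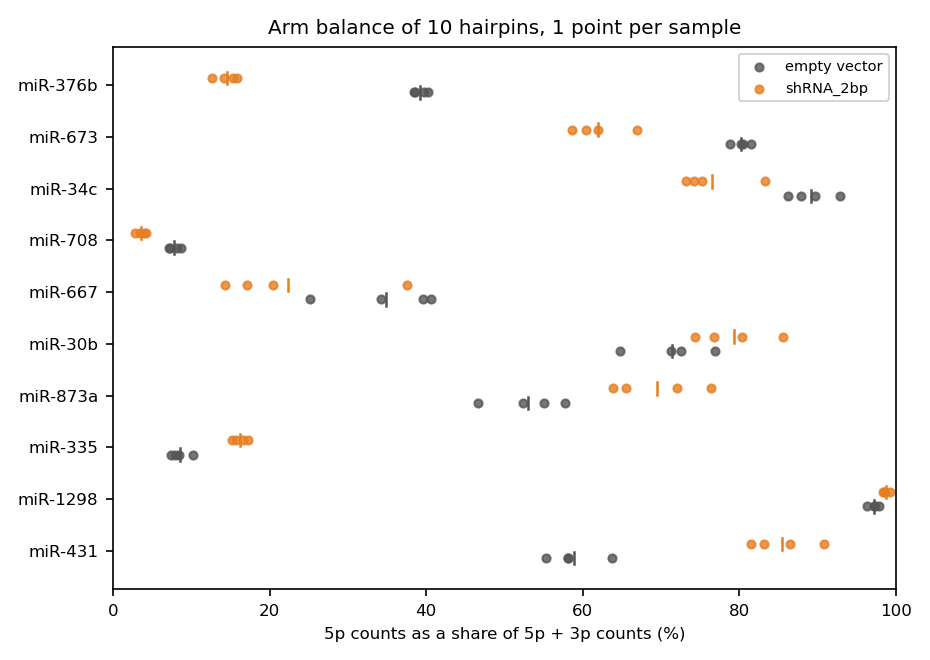
Share of counts from the 5p arm in 10 hairpins, the 5 largest shifts each way among those that passed the test and whose arms both had a mean of at least 10 CPM, 1 point per sample and a tick at the group mean. MiR-376b and miR-431 show the widest gaps between groups, and the groups overlap for miR-667 and miR-30b.

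Base content went with the direction of change. A sequence was at hand for 427 of the 483 tested miRNAs. Of 168 with a GC content of 45.45% or less, 75 rose and 40 fell (median 0.28). Of 130 in between, 36 rose and 41 fell (median -0.10), and of 129 above 54.55%, 29 rose and 59 fell (median -0.33). Among names with an arm suffix 16 of 109 GC-rich ones rose and 57 fell, whereas of 20 GC-rich names without a suffix 13 rose and 2 fell. Across miRNAs, which share samples and are not independent, Spearman's rho of GC content with the log2 change was -0.32 for 387 names with a suffix, -0.332 for the 308 of them outside the Dlk1-Dio3 region and 0.11 for 40 names without a suffix. Its correlation with abundance over the same 387 names was -0.111. GC content can bear on ligation and PCR as well as on the RNA itself, and its part was not tested. With a GC correction 186 miRNAs rose and 139 fell.

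**Figure D5:**
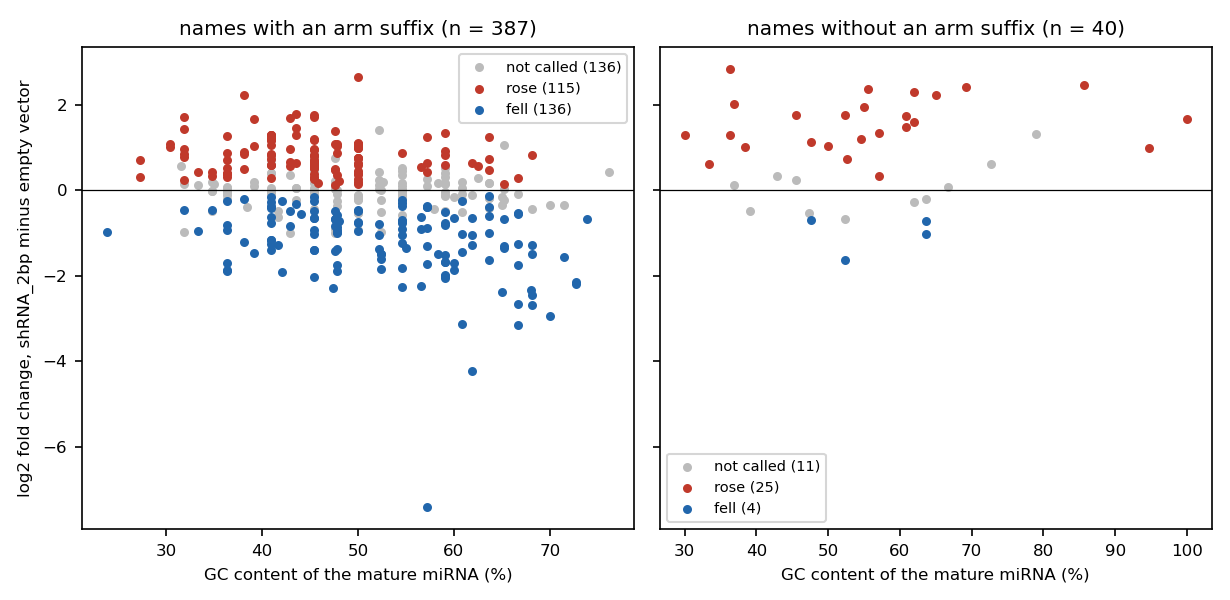
Log2 fold change against GC content of the mature miRNA, for names with an arm suffix (left, n = 387) and without one (right, n = 40). On the left falls gather at high GC content, and on the right rises (25) outnumber falls (4) across the range.

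The 2-mutation hairpin was also set against the other hairpins, in contrasts that share its samples with the main one. Against shRNA 312 of 483 miRNAs differed (64.6%), against shRNA_5bp 288 (59.6%), and 220 differed from both (45.5%). All 12 of the largest falls differed from both other hairpins, as did 11 of the 12 largest rises. These miRNAs were picked as extremes of the same shRNA_2bp samples. A difference here can go either way and need not mean a larger change with shRNA_2bp. The comparisons of each hairpin with the empty vector share their controls, so their values are only given side by side. MiR-760-3p stood at -2.95 with shRNA_2bp, 0.19 with shRNA and -1.43 with shRNA_5bp, and the difference between shRNA_2bp and shRNA_5bp was -1.51 (adjusted p = 7.23e-16). MiR-543-3p stood at -2.02, 0.03 and -0.09. The rise that did not differ from shRNA_5bp was that of miR-466i-5p (2.80, 0.35 and 2.75; difference 0.06, adjusted p = 0.859). MiR-99a-5p stood at 0.75, -0.18 and 0.15, and miR-128-3p at -0.83, -0.37 and -0.81. The fall of miR-128-3p was deeper than with shRNA by 0.46 on the log2 scale (adjusted p = 4.47e-07), while its difference from shRNA_5bp was -0.02 (adjusted p = 0.841). For miR-690 the rise was smaller than with shRNA_5bp (1.77 and 4.50), and miR-10a-5p rose with shRNA_2bp more than with either (1.78, 0.30 and 0.20).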

How the data were processed

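Small RNA was sequenced from 16 samples, 4 per group. Per the labels' protocols, 100 ng of total RNA went through adapter ligation, 15 PCR cycles and size selection, without molecular identifiers, so detection floors cover counting error only. The authors deposited raw counts of reads per mature miRNA; per the submitters' processing notes, the tools were edgeR, Bowtie 1.1.1, cutadapt 1.15, Trim Galore 0.6.0 and bcl2fastq 2.20.0.422, and the build was GRCm38.p6. Their settings are not given in the sources used here. All names carry the prefix mmu, left out here.

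The 16 samples were fitted together in edgeR 4.0.16 (R 4.3.3), with TMM scaling, its own low-count filter (which left out 1495 miRNAs) and a robust quasi-likelihood F test on 12 residual degrees of freedom. P-values were adjusted by Benjamini-Hochberg over 483 miRNAs. Levels are TMM-scaled CPM, with the SD over 4 samples, unless called unscaled; shares use all counts. Arm balance was tested in edgeR on the counts of both arms of a hairpin, with a term per sample, over 119 hairpins. Alternatives used limma 3.58.1 and DESeq2 1.42.0. The scripts were tested on simulated counts. Exact permutation tests compared single values. No label ties replicate numbers to a shared source. Same-numbered shRNA_2bp and shRNA samples deviated together only weakly (correlations of 0.149 to 0.192 over 360 miRNAs, each over 0.1). A replicate block was tried for that contrast as a paired analysis, though pairing is not established. Host genes came from GENCODE M21 and sequences and positions from RefSeq.

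MiRNAs are named when among the 12 largest rises or falls (adjusted p under 0.05, an unscaled mean of at least 10 CPM over the 8 samples, groups not overlapping), the 10 most abundant, the 5 largest called arm shifts each way with both arms at such a mean, or up to 4 changed members of a list, cluster or seed. The members, lists and rules were chosen with earlier results of these data known. Counts were identical for 14 names, which stay separate in the totals.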

Additional observations from a re-analysis of the deposited data

Results flagged for a closer look

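Among 302 groups of 4 samples looked at, 20 (6.62%) held 1 sample that stood apart from the other 3 by Dixon's test at 95%, which chance gives in about 1 group of 20. With the empty vector, the low samples were number 4 for let-7i-5p (40370 CPM), miR-298-5p (1576 CPM) and miR-486a-5p and miR-486b-5p (191 CPM each, identical counts), and number 1 for miR-22-5p (92.66 CPM). The high ones were number 2 for miR-125b-5p (17940 CPM) and miR-128-3p (449300 CPM), number 3 for miR-204-5p (854.2 CPM) and miR-667-3p (68.62 CPM), and number 1 for miR-23a-3p (61.09 CPM), miR-532-5p (1167 CPM) and miR-877-5p (39 CPM).

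With shRNA_2bp, the high samples were number 1 for let-7d-5p (6410 CPM), number 2 for miR-338-5p (165.2 CPM) and miR-466i-5p (68.78 CPM), number 3 for miR-107-3p (81.64 CPM), and number 4 for miR-1188-5p (2.456 CPM), miR-503-3p (9.823 CPM) and miR-92b-3p (291.4 CPM). The low one was number 3 for miR-130a-3p (46.85 CPM). No sample of the 8 held more than 4 of the 20.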

How the results depend on the processing

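The count of changed miRNAs was 240 to 333 over all alternatives, which differed in how many miRNAs were tested. It was 240 of 379 tested at equal depth, 322 of 1367 without the low-count filter and 313 of 483 with DESeq2. When 1 sample was left out it was 290 to 308 (132 to 164 rises and 143 to 167 falls). Of 140 named miRNAs that were called, 100 kept their call under every alternative in which they were tested, including the 12 largest rises and 12 largest falls. Falls over 2-fold numbered 117 of 1367 tested without the filter on low counts (68 to 88 on leaving out 1 sample). Rises over 2-fold numbered 40 over the 436 tested names with an arm suffix only, an alternative chosen after seeing the data (54 to 68). Arm shifts numbered 27 with limma and a replicate block, 9 toward 5p and 18 toward 3p, and 43 with limma alone; leaving out 1 sample gave 38 to 54, 15 to 20 and 22 to 35. MiRNAs with at least 5 counts at equal depth differed by 17 (411 against 394, exact p = 0.0286); with 1 count the difference was -9.25 to -2.08 on leaving out 1 sample. The share of the 10 most abundant differed by 0.463 to 0.930 points and library totals by -7388810 to -4596050 counts; 290 to 299 miRNAs differed from shRNA and 267 to 283 from shRNA_5bp.

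Signs turned with library size alone for let-7c-5p (0.17), let-7e-5p (0.012), miR-132-5p (0.030), miR-335-3p (0.14) and miR-99b-5p (0.039). They turned with a GC correction for let-7f-5p (-0.012), miR-99b-3p (0.20) and miR-99b-5p (0.46), with the same values under a replicate block and GC correction, where let-7a-5p stood at -0.12. The cause was not tested. Shared replicate numbers were not taken to pair shRNA_2bp with the empty vector: same-numbered samples correlated at 0.0854 to 0.144 over 360 miRNAs, and 3 of 8 correlated best with their own number. The replicate block gave 324 changed miRNAs, 163 up and 161 down. Against shRNA, where same-numbered samples correlated at 0.149 to 0.192 and pairing is not established, it gave 319 miRNAs. Of these, 310 were shared with the 312 called without it. Against shRNA_5bp it gave 298, and it changed no call of the 24 largest changes in either contrast. Depth limits miRNAs under about 2.55 CPM, the level of 3 counts in the shallowest shRNA_2bp sample.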

Other observations

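Beyond the families described above, 3 of 4 tested miRNAs of an X-linked cluster at chrX:66796805-66826035, known from testis, rose (2 under most alternatives), against 33.3% of all tested. MiR-881-3p went from 10.1 ± 1.59 to 27.8 ± 7.22 CPM (1.43 ± 0.20, adjusted p = 2.44e-07) and miR-871-3p from 6.26 ± 1.77 to 16.3 ± 0.949 CPM (1.28 ± 0.24, adjusted p = 3.06e-05). Of the miR-191/425 cluster both arms of miR-425 fell, miR-425-5p from 85.9 ± 6.92 to 57.4 ± 11.6 CPM, while miR-191-5p stood at 0.04. MiR-24-3p, whose counts join loci on chromosomes 8 and 13, fell from 1560 ± 21.1 to 964 ± 11.4 CPM (-0.70 ± 0.06, adjusted p = 6.33e-12). MiR-23a-3p, a neighbour of the chromosome 8 locus only, rose from 46.4 ± 9.92 to 64.3 ± 10.4 CPM. Its groups overlapped, at 34.85 to 55.37 unscaled CPM with the empty vector and 49.04 to 74.84 with shRNA_2bp. MiR-298-5p fell from 1734 ± 106 to 702 ± 22.4 CPM beside a rise of miR-296-3p from 258 ± 23.0 to 458 ± 11.8 CPM, their precursors lying at chr2:174267047-174267585.

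Near-identical names, which the counting may not separate, mostly did not move in opposite directions. Of 32 pairs of tested mature sequences that differ at 1 or 2 positions, 15 shared a call and 1 was called in opposite directions, let-7e-5p (-0.17) and let-7f-5p (0.24), neither of which kept its call under every alternative. MiR-29a-3p and miR-29c-3p, which differ at 1 position (C10U, counted from the 5′ end), both fell but by -0.41 and -1.86. This pair was chosen after its values were seen. MiR-29c-3p stood at 4.07 CPM with the empty vector and 1.02 CPM with shRNA_2bp. The latter is under the level of 3 counts in these samples, so the size of its fall is poorly fixed. MiR-6945-3p stood at 4.753 CPM over the pooled empty-vector samples and had 0 counts with shRNA_2bp. Taken against 3 counts over the whole shRNA_2bp group (0.4746 CPM) it was at least 10.01-fold lower, and it too was chosen after its values were seen.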
